A study of Homo sapiens with 12 samples.

Results

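Solute carriers, ion pumps and ABC transporters are the membrane proteins that move sugars, amino acids, metal ions and other small solutes into and out of cells and organelles. In a deposited table of 1676 genes from human SH-SY5Y neuroblastoma cells transfected with tau constructs, 28 genes carried such a name. They were chosen by gene symbol alone: names of the solute carrier (SLC), ATP-driven ion and lipid pump (ATP2, ATP6 and related) and ABC transporter families. The pattern matched 36 names, of which 7 mitochondrial carriers of the SLC25A family and ABCA7 were left out by the same rule, and no antisense gene or pseudogene was among them. One of the 28, SLC2A4RG, shares the letters but encodes a DNA-binding regulator of the glucose transporter gene SLC2A4, so 27 members encode a carrier, a pump or a pump subunit.

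Polyadenylated RNA was extracted 24 h after transfection of SH-SY5Y, an established line derived from a metastatic bone tumour and used as a neuron-like model. Each of 4 constructs encoding the microtubule-binding protein tau had 3 libraries, 12 in all. Tau-K174Q-S199E carried both substitutions, Tau-S199E carried the serine-to-glutamate change S199E, Tau-K174Q carried the lysine-to-glutamine change K174Q, and Tau-WT, the study's reference, carried neither. Glutamate is used as a mimic of a phosphorylated serine and glutamine as a mimic of an acetylated lysine. All 4 groups received a tau construct, so no library shows the cells without transfection. A kit that reads the 3′ ends of mRNAs was used, with 400 ng of RNA for a library. The libraries are called here by the number in their column name: 16, 17 and 18 for Tau-K174Q-S199E, 10, 11 and 12 for Tau-S199E, 4, 5 and 6 for Tau-K174Q, and 1, 2 and 3 for Tau-WT. The labels do not say that the libraries stem from separate cultures, and the p-values then reflect only how far these libraries differ, a spread that may be technical.

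Values were scaled gene by gene to a mean of 0 and an SD of 1 across the 12 libraries, so a difference is given in SD units of its own gene. Levels cannot be compared between genes, the depth of the libraries is unknown, and in bulk RNA fewer expressing cells and less RNA per cell cannot be told apart. Fold changes exist only in the authors' deposited table, whose header does not name the contrast. For the 28 genes their sizes on the log2 scale in the authors' deposited table ran from 0.54 to 4.18 with a median of 1.37, beside a median of 1.36 over the table. Its sign was opposite to Tau-S199E minus Tau-WT in 28 of the 28 genes and in 1676 of 1676 genes of the table, and opposite to Tau-K174Q minus Tau-WT in 28 and in 1675. It was the same as that of the interaction of K174Q with S199E, (Tau-K174Q-S199E minus Tau-S199E) minus (Tau-K174Q minus Tau-WT), in 28 and in 1676. By which contrast the authors listed the genes is not given in the sources used here. Because the sign follows these comparisons throughout, a count of genes called in them is read against the share called in the whole table. Every gene of the table had a deposited adjusted p under 0.05, the largest being 0.0499. Shares called in the table are hence shares of an already selected list, not of all expressed genes. An adjusted p of a single gene in these comparisons may rest on the same listing, so it is not independent evidence. The same holds for its direction with Tau-S199E, which mirrors the deposited sign. Relatives of a gene outside the list are not seen, so directions within a family are described for listed genes only. None of 13 markers of sympathoadrenal neuroblastoma and none of 5 markers of other cell types is among the listed genes, so the identity of the cells could not be checked here.

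Solute carriers are driven by the gradient of the solute or of an ion carried with it, while P-type ATPases, V-ATPases and ABC transporters spend ATP. The V-ATPase acidifies endosomes, lysosomes and the Golgi, where proton-coupled carriers and exchangers then work. Nucleotide sugar carriers of the SLC35 family supply the Golgi and the endoplasmic reticulum (ER) with substrates for glycosylation. In neurons these families also serve the uptake of glucose, glutamine and creatine and the loading and recycling of vesicles.

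With Tau-S199E, 15 of the 28 genes rose and 12 fell against Tau-WT (limma with ordinary variances, Benjamini-Hochberg adjustment over all genes, threshold 0.05), a total of 27. In the table as a whole, 1509 of 1676 genes, or 90%, were called in this comparison, 48.3% higher and 41.8% lower. The members' count is near this share of the listed genes. The median difference over the 28 genes was 1.47 SD units, beside 1.41 over the table. The 3 libraries of Tau-S199E and the 3 of Tau-WT did not overlap in 26 of the 28 genes, beside 94.2% of the table. The rises included the calcium and manganese pump ATP2C1 and the sarco-endoplasmic calcium pump ATP2A2. They also included the V-ATPase subunit ATP6V1E1 and the nucleotide carriers SLC35A2 and SLC35B1. The falls included the riboflavin carrier SLC52A2, the lactate carrier SLC16A3, the fatty acid protein SLC27A3, the amino acid carrier SLC38A5 and the creatine carrier SLC6A8. The gene not called was SLC2A4RG, which passed with moderated variances (adjusted p = 0.0474), as 28 of 28 members and 98.4% of the table did, and without library 10 (adjusted p = 0.0394). With the libraries of Tau-S199E and Tau-WT alone 23 members were called, 13 higher and 10 lower, beside 72% of the table. The 4 lost were SLC39A14 (adjusted p = 0.0534), SLC50A1 and ATP6V1F (adjusted p = 0.0525 each) and ABCG2 (adjusted p = 0.128).

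**Figure D1:**
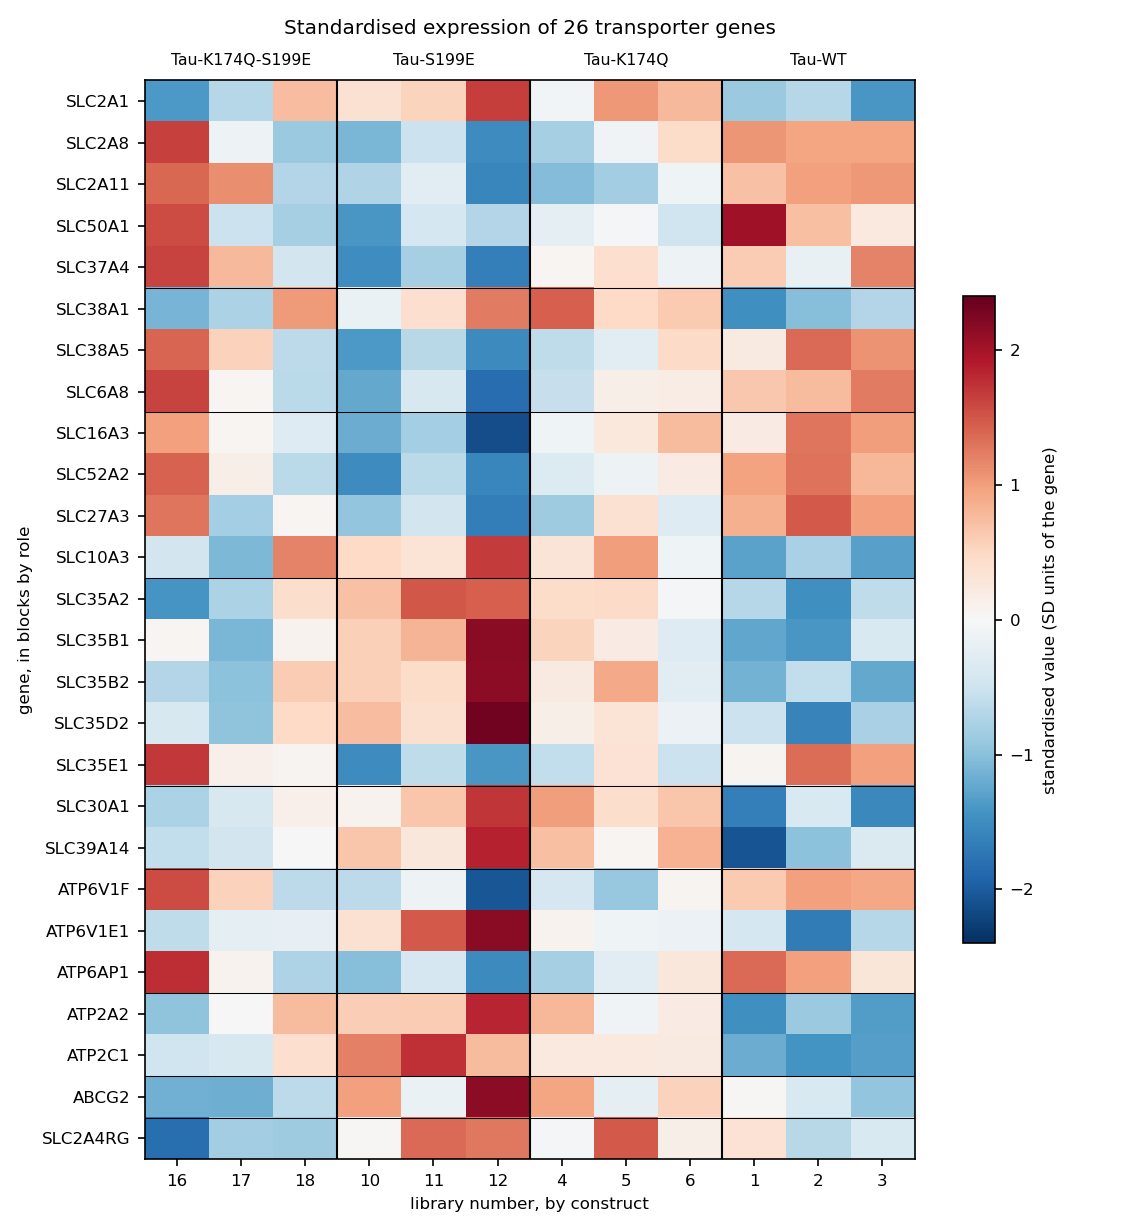
Standardised values (SD units, colour) of 26 of the 28 genes (rows, in blocks by role) in the 12 libraries (columns, by construct). With Tau-S199E, every row but SLC2A4RG was called against Tau-WT (adjusted p under 0.05), beside 90% of the table. The 3 Tau-K174Q-S199E libraries differ among themselves, library 18 often having the colour opposite to libraries 16 and 17.

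Among the 5 genes of sugar transport, 4 fell and 1 rose with Tau-S199E, beside 41.8% of the table called lower and 48.3% higher. Groups of so few genes cannot be set apart from these shares, here and in the roles below. SLC2A8 (GLUT8, an intracellular hexose carrier; GRCh38 chromosome 9, 127397138 to 127408424, plus strand) had standardised values of 1.64, -0.13 and -0.90 in Tau-K174Q-S199E, -1.09, -0.52 and -1.51 in Tau-S199E, -0.79, -0.09 and 0.44 in Tau-K174Q and 1.06, 0.96 and 0.95 in Tau-WT. The 3 Tau-S199E libraries lay below the 3 Tau-WT libraries, with a difference of -2.03 (SE 0.62, adjusted p = 0.0191). It was not called without library 12 (adjusted p = 0.0641). SLC2A11 (GLUT11, a hexose carrier) had values of 1.38, 1.11 and -0.70 in Tau-K174Q-S199E, -0.73, -0.27 and -1.56 in Tau-S199E, -1.04, -0.83 and -0.10 in Tau-K174Q and 0.70, 0.99 and 1.04 in Tau-WT. Its Tau-S199E and its Tau-K174Q libraries all lay below Tau-WT, and the Tau-S199E difference was -1.76 (SE 0.58, adjusted p = 0.0231). This fall was not called without library 2, 3 or 12 (adjusted p = 0.0557 to 0.0791). Its log2 fold change in the authors' deposited table, 1.51, was the highest of the 28.

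SLC37A4, which carries glucose-6-phosphate into the ER for its cleavage to glucose, had values of 1.62, 0.78 and -0.43 in Tau-K174Q-S199E, -1.49, -0.79 and -1.64 in Tau-S199E, 0.044, 0.40 and -0.12 in Tau-K174Q and 0.61, -0.17 and 1.197 in Tau-WT. Each Tau-S199E library lay below each library of the other constructs, and the difference from Tau-WT was -1.86 (SE 0.55, adjusted p = 0.0175). That fall was not called without library 3 or 12 (adjusted p = 0.0513 to 0.0586). Against Tau-WT, Tau-K174Q differed by -0.44 (SE 0.55, adjusted p = 0.458), which did not pass. SLC50A1 (SWEET1, a sugar carrier) averaged 0.086 ± 1.30 in Tau-K174Q-S199E, -0.84 ± 0.50 in Tau-S199E, -0.24 ± 0.22 in Tau-K174Q and 0.999 ± 0.93 in Tau-WT (SD, n = 3 each), and its fall with Tau-S199E (-1.84, adjusted p = 0.0347) lay beside the widest Tau-WT spread of all 28 genes and was not called without library 1, 2, 10 or 12 (adjusted p = 0.0622 to 0.109). The exception in direction was SLC2A1 (GLUT1, the carrier of basal glucose uptake), which averaged -0.44 ± 1.08 in Tau-K174Q-S199E, 0.85 ± 0.70 in Tau-S199E, 0.58 ± 0.58 in Tau-K174Q and -0.99 ± 0.37 in Tau-WT (SD, n = 3 each). It rose with Tau-S199E by 1.84 (SE 0.60, adjusted p = 0.0225) and was not called without library 3 or 12 (adjusted p = 0.0619 to 0.077). Among the listed hexose carriers of the SLC2A family, SLC2A1 rose, and SLC2A8 and SLC2A11 fell, each opposite to its deposited sign.

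The sodium-coupled glutamine carriers SLC38A1 (SNAT1) and SLC38A5 (SNAT5), which are paralogs, had opposite directions, and so had their deposited signs. SLC38A5 had values of 1.40, 0.55 and -0.63 in Tau-K174Q-S199E, -1.38, -0.66 and -1.53 in Tau-S199E, -0.60, -0.25 and 0.46 in Tau-K174Q and 0.22, 1.35 and 1.07 in Tau-WT. All Tau-S199E libraries lay below all Tau-WT libraries, with a difference of -2.07 (SE 0.56, adjusted p = 0.0142). SLC38A1 averaged -0.29 ± 1.14 in Tau-K174Q-S199E, 0.50 ± 0.71 in Tau-S199E, 0.85 ± 0.52 in Tau-K174Q and -1.06 ± 0.39 in Tau-WT (SD, n = 3 each), a rise with Tau-S199E of 1.57 (SE 0.61, adjusted p = 0.0388), which was not called without library 1, 2, 3, 5, 6, 11 or 12 (adjusted p = 0.0512 to 0.126). SLC6A8, which takes up creatine with sodium and chloride, had values of 1.62, 0.055 and -0.65 in Tau-K174Q-S199E, -1.23, -0.38 and -1.83 in Tau-S199E, -0.56, 0.14 and 0.17 in Tau-K174Q and 0.65, 0.77 and 1.25 in Tau-WT. It fell with Tau-S199E by 2.03 (SE 0.60, adjusted p = 0.0174), and library 12 was its lowest. SLC6A8 was not called without library 12 (adjusted p = 0.0606).

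The promoters of this pair of paralogs are shown because their RNAs had opposite directions. Each line gives 250 bases up to the transcription start from RefSeq (GRCh38.p14), 5′ to 3′ on the minus strand, in lower case with the E-box CACGTG in capitals. The SLC38A5 window is chrX:48470261-48470510 and the SLC38A1 window, at 1 of its RefSeq starts, is chr12:46267988-46268237. GENCODE annotates no exon in either.
SLC38A5: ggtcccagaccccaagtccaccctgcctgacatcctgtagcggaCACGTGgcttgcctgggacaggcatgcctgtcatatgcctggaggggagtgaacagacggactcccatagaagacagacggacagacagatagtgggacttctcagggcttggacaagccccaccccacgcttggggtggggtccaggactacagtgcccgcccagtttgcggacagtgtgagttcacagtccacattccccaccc
SLC38A1: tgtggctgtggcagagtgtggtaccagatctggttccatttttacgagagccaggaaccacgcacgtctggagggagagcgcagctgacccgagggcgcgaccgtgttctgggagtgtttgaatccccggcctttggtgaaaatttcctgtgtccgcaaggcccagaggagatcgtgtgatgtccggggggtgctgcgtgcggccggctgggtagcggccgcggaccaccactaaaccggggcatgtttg
The SLC38A5 window holds 1 E-box, from 206 to 201 bases before the start, and the SLC38A1 window holds none. GC content was 60.8% for SLC38A5 and 61.6% for the SLC38A1 window shown. The second SLC38A1 window in RefSeq had 42.4% and no E-box.

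RefSeq promoters were at hand for 24 of the 28 genes (44 windows), and 4 motifs were searched on both strands. The palindromic E-box CACGTG, which MYC, USF and TFE factors can bind, was found at SLC38A5, SLC35B2 and ABCG2, and in 6.34% of all 35116 promoters of the same length (7.73% of genes). The lysosomal CLEAR motif in its strict form TCACGTGA, which contains the E-box, was found at SLC35B2 and in 0.854% of promoters (1.04% of genes). The amino acid response element TGATGNAA was found at 0 of the 24 genes and in 3.14% of promoters (3.89% of genes). The ER stress response element, CCAAT and CCACG with 9 bases between them, was found at 0 and in 0.074% of promoters (0.0916% of genes). With shares this low, a count of 0 among 24 genes says little. Of 19 regulators of transporter genes that were looked up, TFE3 and ATF4 are in the table. TFE3, which binds CLEAR motifs, fell with Tau-S199E, -1.78 (SE 0.51, adjusted p = 0.0158). ATF4, which binds amino acid response elements, fell as well, -1.86 (SE 0.59, adjusted p = 0.0217), and was not called without library 1 or 12 (adjusted p = 0.0643 to 0.071).

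Of the 4 remaining carriers of organic solutes, 3 fell and 1 rose with Tau-S199E, beside 41.8% of the table called lower and 48.3% higher. SLC16A3 (MCT4, which exports lactate from glycolytic cells) had values of 0.99, 0.039 and -0.32 in Tau-K174Q-S199E, -1.19, -0.81 and -2.12 in Tau-S199E, -0.098, 0.26 and 0.75 in Tau-K174Q and 0.19, 1.29 and 1.01 in Tau-WT. The Tau-S199E libraries lay below all others, with a difference from Tau-WT of -2.20 (SE 0.49, adjusted p = 0.0102). SLC52A2 (a riboflavin carrier) had values of 1.41, 0.14 and -0.64 in Tau-K174Q-S199E, -1.50, -0.65 and -1.57 in Tau-S199E, -0.33, -0.12 and 0.19 in Tau-K174Q and 0.97, 1.29 and 0.80 in Tau-WT. Its Tau-S199E difference of -2.26 (SE 0.50, adjusted p = 0.0102) was the largest fall of the 28 genes in SD units.

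SLC27A3 (FATP3, an acyl-CoA synthetase of the fatty acid transport family) had values of 1.29, -0.81 and 0.053 in Tau-K174Q-S199E, -0.95, -0.45 and -1.66 in Tau-S199E, -0.85, 0.37 and -0.30 in Tau-K174Q and 0.85, 1.47 and 0.99 in Tau-WT. Its libraries were lower with Tau-S199E and with Tau-K174Q than with Tau-WT, and the Tau-S199E difference was -2.12 (SE 0.57, adjusted p = 0.0141). SLC10A3, an orphan of the bile acid carrier family, had values of -0.44, -1.08 and 1.18 in Tau-K174Q-S199E, 0.48, 0.33 and 1.68 in Tau-S199E, 0.31, 1.01 and -0.097 in Tau-K174Q and -1.29, -0.78 and -1.30 in Tau-WT. It rose with Tau-S199E by 1.95 (SE 0.62, adjusted p = 0.0214), and library 18 stood with Tau-S199E and Tau-K174Q rather than with libraries 16 and 17. The rise was not called without library 1, 3 or 12 (adjusted p = 0.0528 to 0.0732).

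Of the 5 genes of the SLC35 family, 4 rose and 1 fell with Tau-S199E, beside 48.3% of the table called higher and 41.8% lower. SLC35A2, the Golgi carrier of UDP-galactose (chromosome X, 48903180 to 48911958, minus strand), had values of -1.42, -0.76 and 0.43 in Tau-K174Q-S199E, 0.71, 1.49 and 1.44 in Tau-S199E, 0.44, 0.46 and -0.023 in Tau-K174Q and -0.69, -1.48 and -0.61 in Tau-WT. The Tau-S199E libraries were above all others, 2.14 over Tau-WT (SE 0.48, adjusted p = 0.0104). The authors' deposited table gives it the smallest adjusted p of the 28 genes, 0.000423, with a log2 fold change of -2.46. SLC35B1, which exchanges ATP for ADP across the ER membrane, had values of 0.04, -1.10 and 0.092 in Tau-K174Q-S199E, 0.58, 0.82 and 2.17 in Tau-S199E, 0.54, 0.19 and -0.31 in Tau-K174Q and -1.25, -1.40 and -0.37 in Tau-WT. Its Tau-S199E libraries also exceeded all others, 2.19 over Tau-WT (SE 0.53, adjusted p = 0.011).

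SLC35B2 carries the sulphate donor PAPS into the Golgi and had values of -0.70, -0.98 and 0.62 in Tau-K174Q-S199E, 0.56, 0.44 and 2.14 in Tau-S199E, 0.21, 0.91 and -0.27 in Tau-K174Q and -1.13, -0.59 and -1.23 in Tau-WT. It rose with Tau-S199E by 2.03 (SE 0.59, adjusted p = 0.0168), and library 12 was far above libraries 10 and 11. SLC35B2 was not called without library 12 (adjusted p = 0.0521). Its log2 fold change in the authors' deposited table, -4.18, was the lowest of the 28. SLC35D2, a carrier of UDP-N-acetylglucosamine, averaged -0.29 ± 0.73 in Tau-K174Q-S199E, 1.15 ± 1.03 in Tau-S199E, 0.11 ± 0.24 in Tau-K174Q and -0.97 ± 0.56 in Tau-WT (SD, n = 3 each) and rose with Tau-S199E by 2.12 (adjusted p = 0.014). SLC35E1, an orphan of the family, had values of 1.70, 0.12 and 0.063 in Tau-K174Q-S199E, -1.50, -0.60 and -1.40 in Tau-S199E, -0.59, 0.35 and -0.52 in Tau-K174Q and 0.067, 1.33 and 0.99 in Tau-WT. It moved the other way, with all Tau-S199E libraries below all others and a difference from Tau-WT of -1.97 (SE 0.55, adjusted p = 0.0152).

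**Figure D2:**
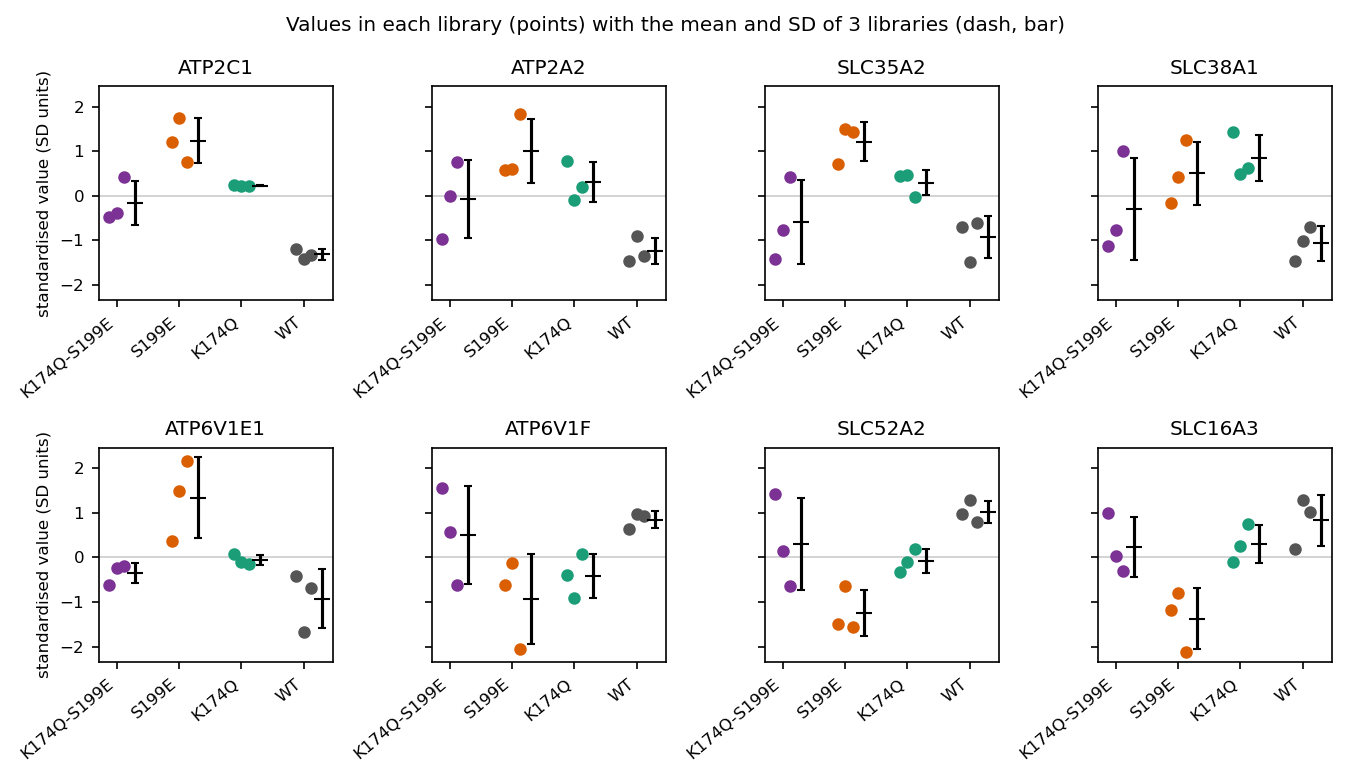
Standardised values (SD units, y axis) of 8 genes in the 3 libraries of each construct (points), with the mean and SD beside them (dash and bar). In ATP2C1 and SLC35A2 the Tau-S199E points lie above all others and in SLC52A2 and SLC16A3 below all others, while SLC38A1 was highest with Tau-K174Q (0.85 on average).

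Both zinc carriers rose with Tau-S199E, beside 48.3% of the table called higher. SLC30A1 (ZnT1, which exports zinc from the cytosol) averaged -0.34 ± 0.44 in Tau-K174Q-S199E, 0.83 ± 0.83 in Tau-S199E, 0.70 ± 0.30 in Tau-K174Q and -1.18 ± 0.71 in Tau-WT (SD, n = 3 each), a rise of 2.01 (SE 0.50, adjusted p = 0.0116). SLC39A14 (ZIP14, which imports zinc, iron and manganese) averaged -0.34 ± 0.31 in Tau-K174Q-S199E, 0.93 ± 0.82 in Tau-S199E, 0.53 ± 0.43 in Tau-K174Q and -1.13 ± 0.87 in Tau-WT (SD, n = 3 each), a rise of 2.06 (SE 0.53, adjusted p = 0.0126) that did not pass with the libraries of Tau-S199E and Tau-WT alone (adjusted p = 0.0534). The exporter and the importer had the same direction, each opposite to its deposited sign.

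The 3 V-ATPase genes of the table did not share a direction with Tau-S199E, beside 48.3% of the table called higher and 41.8% lower. ATP6V1E1, subunit E of the peripheral stalk (chromosome 22, 17592136 to 17628818, minus strand), had values of -0.62, -0.24 and -0.19 in Tau-K174Q-S199E, 0.37, 1.48 and 2.17 in Tau-S199E, 0.079, -0.11 and -0.14 in Tau-K174Q and -0.43, -1.68 and -0.69 in Tau-WT. All Tau-S199E libraries were above all others, and the rise over Tau-WT was 2.27 (SE 0.47, adjusted p = 0.01). ATP6V1F, subunit F of the central rotor (chromosome 7, 128862826 to 128865844, plus strand), had values of 1.56, 0.56 and -0.63 in Tau-K174Q-S199E, -0.63, -0.12 and -2.05 in Tau-S199E, -0.40, -0.92 and 0.074 in Tau-K174Q and 0.63, 0.98 and 0.94 in Tau-WT. It fell with Tau-S199E by 1.78 (SE 0.64, adjusted p = 0.0312). ATP6AP1 (Ac45), an accessory subunit needed for assembly, had values of 1.78, 0.085 and -0.75 in Tau-K174Q-S199E, -1.03, -0.39 and -1.54 in Tau-S199E, -0.80, -0.26 and 0.27 in Tau-K174Q and 1.37, 0.98 and 0.30 in Tau-WT. It fell by 1.87 (SE 0.65, adjusted p = 0.0281), so of 3 genes of the same pump 1 rose and 2 fell. ATP6V1F was not called without library 1, 2, 3 or 12 (adjusted p = 0.0557 to 0.102), and ATP6AP1 was not called without library 1, 2, 10 or 12 (adjusted p = 0.0596 to 0.0895). Of 17 genes of V-ATPase assembly and regulation, 2 are in the table, and both rose with Tau-S199E. They are VMA21, 1.97 (SE 0.47, adjusted p = 0.0109), and CCDC115, 1.61 (SE 0.61, adjusted p = 0.0362), which assist assembly of the membrane sector in the ER and Golgi. CCDC115 was not called without library 2, 3, 6, 10, 11 or 12 (adjusted p = 0.0501 to 0.101) or with library medians removed (adjusted p = 0.0928).

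The calcium pumps ATP2C1 and ATP2A2 rose with Tau-S199E. ATP2C1 (SPCA1, which loads the Golgi with calcium and manganese; chromosome 3, 130850595 to 131016712, plus strand) had values of -0.48, -0.39 and 0.41 in Tau-K174Q-S199E, 1.21, 1.75 and 0.76 in Tau-S199E, 0.23, 0.23 and 0.22 in Tau-K174Q and -1.19, -1.43 and -1.32 in Tau-WT. All Tau-S199E libraries were above all others, and the 3 Tau-K174Q libraries lay between them and Tau-WT within a range of 0.22 to 0.23. Its rise of 2.55 with Tau-S199E (SE 0.29, adjusted p = 0.00677) was the largest of the 28 genes in SD units, and it was the gene with the lowest adjusted p.

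ATP2A2 (SERCA2, which returns calcium to the ER; chromosome 12, 110280756 to 110351093, plus strand) had values of -0.96, -0.0074 and 0.77 in Tau-K174Q-S199E, 0.58, 0.60 and 1.83 in Tau-S199E, 0.79, -0.089 and 0.21 in Tau-K174Q and -1.47, -0.90 and -1.34 in Tau-WT. It rose with Tau-S199E by 2.24 (SE 0.51, adjusted p = 0.0104), and the Tau-S199E and Tau-K174Q libraries all exceeded Tau-WT.

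ABCG2, an efflux pump of drugs and porphyrins and the one ABC transporter among the 28, had values of -1.15, -1.18 and -0.63 in Tau-K174Q-S199E, 0.98, -0.16 and 2.14 in Tau-S199E, 0.95, -0.24 and 0.56 in Tau-K174Q and 0.035, -0.36 and -0.95 in Tau-WT. The Tau-S199E libraries spanned a wide range and overlapped Tau-WT, and the rise of 1.41 (SE 0.58, adjusted p = 0.047) was not called without library 1, 2, 3, 4, 5, 6, 10, 12, 16, 17 or 18 (adjusted p = 0.0505 to 0.149). Its Tau-K174Q-S199E libraries were below every Tau-S199E and Tau-K174Q library, -1.98 against Tau-S199E (adjusted p = 0.0649) and -0.57 against Tau-WT (adjusted p = 0.597), which did not pass. SLC2A4RG averaged -1.17 ± 0.56 in Tau-K174Q-S199E, 0.88 ± 0.73 in Tau-S199E, 0.52 ± 0.82 in Tau-K174Q and -0.23 ± 0.52 in Tau-WT (SD, n = 3 each), and its Tau-S199E difference of 1.12 did not pass (SE 0.55, adjusted p = 0.0789). The 3 Tau-K174Q-S199E libraries of SLC2A4RG lay below the 9 others.

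**Figure D3:**
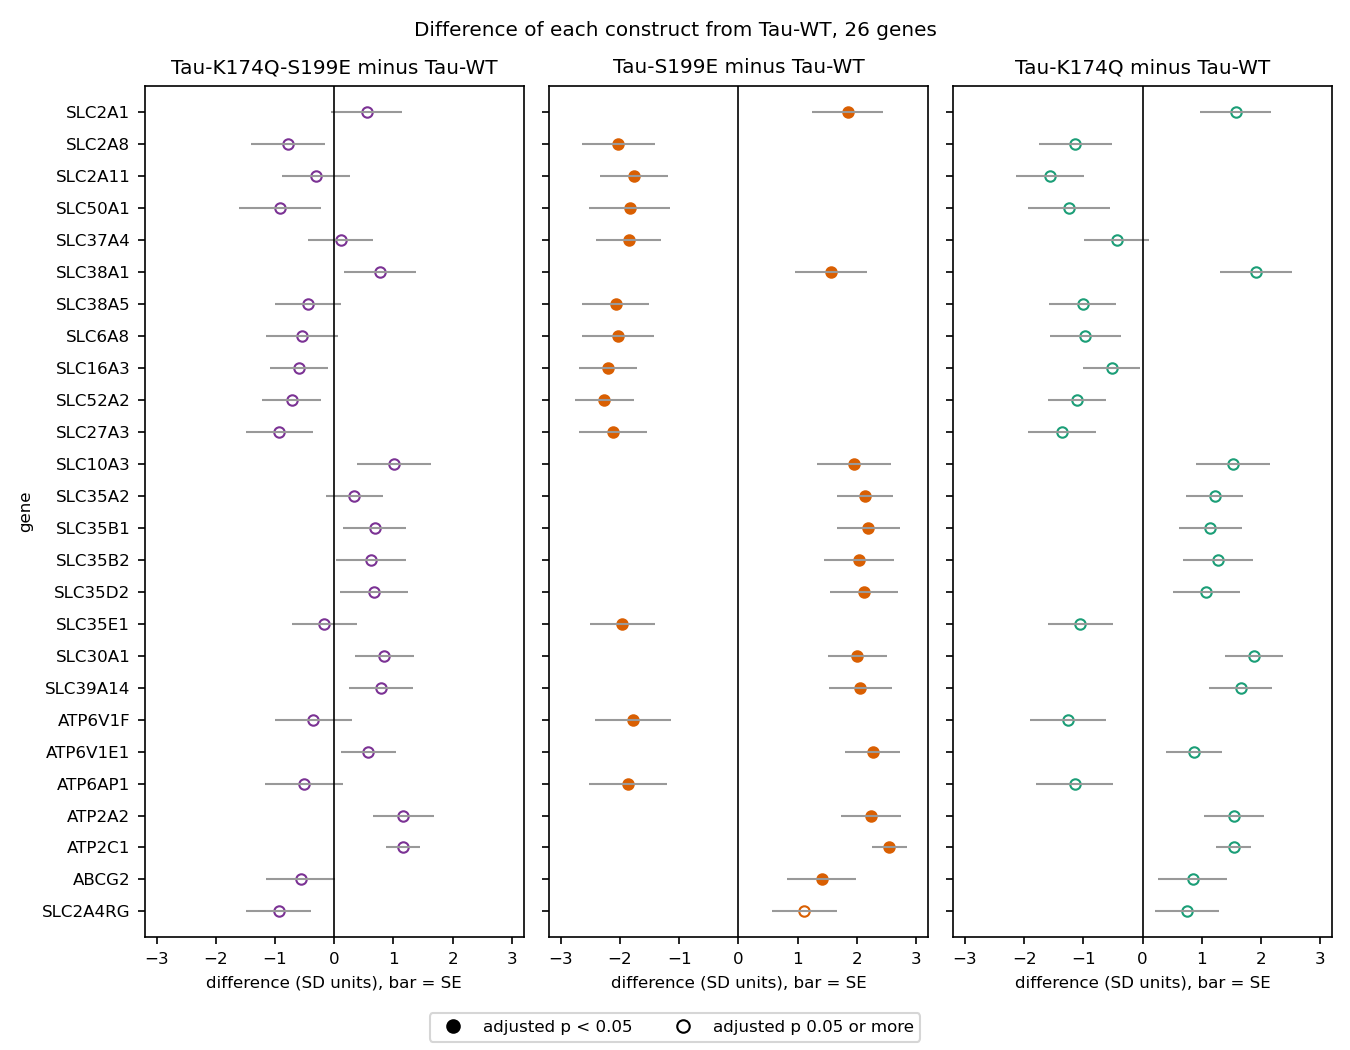
Difference of each construct from Tau-WT in SD units (x axis; point with SE bar) for 26 of the 28 genes (rows), filled where the adjusted p is under 0.05. With Tau-S199E every gene but SLC2A4RG is filled, beside 90% of the table called. With Tau-K174Q-S199E and with Tau-K174Q none is. The Tau-K174Q and Tau-S199E points of each gene lie on the same side of 0. In the table as a whole both differences are opposite to the deposited sign, in 1675 and 1676 of 1676 genes. Both also subtract the same Tau-WT libraries.

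With Tau-K174Q, 0 of the 28 genes passed against Tau-WT by limma with ordinary variances, and 0% of the table's 1676 genes did. At an unadjusted p under 0.05 there were 12 members, 10 higher and 2 lower, beside 51.9% of the table. Without library 4 there were 7, all higher, beside 27.9%. With moderated variances 14 members were called, 10 higher and 4 lower (59.9% of the table). With the libraries of Tau-K174Q and Tau-WT alone 12 were called (48.9% of the table), and without library 18 of Tau-K174Q-S199E, which enters the shared spread, 10 were called (40.3% of the table). Without library 16, 2 members were called, ATP2C1 among them, beside 2.86% of the table. The libraries of the 2 constructs did not overlap in 22 members, 14 higher and 8 lower, beside 80.7% of the table. Differences are hence given as values. Among the higher ones were SLC38A1 (1.91, SE 0.61, adjusted p = 0.0663) and SLC30A1 (1.88, SE 0.50, adjusted p = 0.066). The lowest were SLC2A11 (-1.57, SE 0.58, adjusted p = 0.0762) and SLC27A3 (-1.36, SE 0.57, adjusted p = 0.0924). The median over the 28 genes was 0.86 SD units, beside 0.58 over the table. With library medians removed these were 0.53 and 0.25, and the table's genes at an unadjusted p under 0.05 numbered 426 higher and 436 lower, against 543 and 327 as deposited (8 and 3 members, against 10 and 2).

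The comparisons of Tau-S199E and of Tau-K174Q with Tau-WT share the Tau-WT libraries, so their values are set side by side only. In SLC38A1 the Tau-K174Q difference from Tau-WT exceeded the Tau-S199E difference. The Tau-K174Q minus Tau-S199E difference itself was 0.35 for SLC38A1 (adjusted p = 0.757). In the direct comparison of Tau-K174Q with Tau-S199E, moderated variances called 0 of 28 members (0 of 1676 genes of the table). Ordinary variances called 0 of 28, beside 0.0597% of the table. At an unadjusted p under 0.05 there were 5 members, SLC16A3, SLC37A4 and SLC52A2 higher with Tau-K174Q and ATP2C1 and ATP6V1E1 lower, beside 16.1% of the table. SLC16A3 had the highest difference, 1.68 (SE 0.49, adjusted p = 0.238), and ATP6V1E1 the lowest, -1.39 (SE 0.47, adjusted p = 0.26). The libraries did not overlap in 10 members, beside 36.2% of the table.

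With Tau-K174Q-S199E, 0 of the 28 genes passed against Tau-WT, beside 0% of the table, and 0 passed with moderated variances. At an unadjusted p under 0.05 there were 2 members, ATP2C1 among them, beside 7.58% of the table. ATP2C1 differed by 1.16 (SE 0.29, adjusted p = 0.533). Those 2 genes had all Tau-K174Q-S199E libraries above all Tau-WT libraries, SLC2A4RG had them all below (-0.94, SE 0.55, adjusted p = 0.533), and the other 25 overlapped, beside 11.6% of the table without overlap. The median difference over the 28 genes was 0.23 SD units, beside 0.20 over the table. It was 0.066 without library 16, 0.080 without library 2, 0.12 without library 18, 0.39 without library 3 and 0.032 with library medians removed (0.0059 over the table). Without library 16 there were 9 members at an unadjusted p under 0.05, 3 higher and 6 lower, beside 23.7% of the table.

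Between Tau-K174Q-S199E and Tau-S199E, 0 of 28 members were called, beside 0.119% of the table. At an unadjusted p under 0.05 there were 18 members, 7 higher and 11 lower with Tau-K174Q-S199E, beside 56.4% of the table. With library medians removed there were 9 higher and 7 lower members, and 559 higher and 388 lower genes of the table, against 455 and 491 as deposited. Moderated variances called 21 members, 11 higher and 10 lower (68.8% of the table). The highest difference was that of SLC37A4, 1.97 (SE 0.55, adjusted p = 0.0644), and the lowest that of SLC2A4RG, -2.05 (SE 0.55, adjusted p = 0.0644). Libraries of the 2 constructs did not overlap in 12 members, 5 higher and 7 lower, beside 43.4% of the table. Between Tau-K174Q-S199E and Tau-K174Q, moderated variances called 0 of 28 members (2 of 1676 genes of the table). Ordinary variances called 0 of 28, beside 0% of the table. The 4 members at an unadjusted p under 0.05 were all lower with Tau-K174Q-S199E (8.23% of the table), among them SLC2A4RG (-1.69, SE 0.55, adjusted p = 0.456) and ABCG2 (-1.41, SE 0.58, adjusted p = 0.456). In 6 members all Tau-K174Q-S199E libraries lay below all Tau-K174Q libraries, beside 11.2% of the table without overlap in either direction.

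With ordinary variances, the calls of Tau-K174Q-S199E against Tau-S199E and against Tau-K174Q changed with library 18. Without it, 24 members were called against Tau-S199E, 10 higher and 14 lower (78.5% of the table), and 3 against Tau-K174Q (8.47% of the table), SLC2A11 among them. Library 18 also enters the shared spread. Leaving it out raised Tau-K174Q against Tau-WT, which does not compare it, from 0 to 10 members. With library 18 kept, moderated variances called 21 members against Tau-S199E (68.8% of the table). In the 16 genes with a negative fold change in the authors' deposited table, libraries 16 and 17 were below the gene mean in 15 and 16 genes, and library 18 was above it in 13. The table as a whole showed the same, with library 18 above the mean in 83.5% of its genes of negative sign. In the 12 genes of positive sign, library 16 was above the mean in 12 genes and library 17 in 9, and library 18 was below it in 10. The median SD of the 28 genes within a construct was 0.98 in Tau-K174Q-S199E, 0.69 in Tau-S199E, 0.44 in Tau-K174Q and 0.49 in Tau-WT. What set library 18 apart was not tested. The interaction of K174Q with S199E was called in 27 of the 28 genes, beside 97% of the table, and nothing is read from this count because the deposited sign equals its sign throughout the table.

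**Figure D4:**
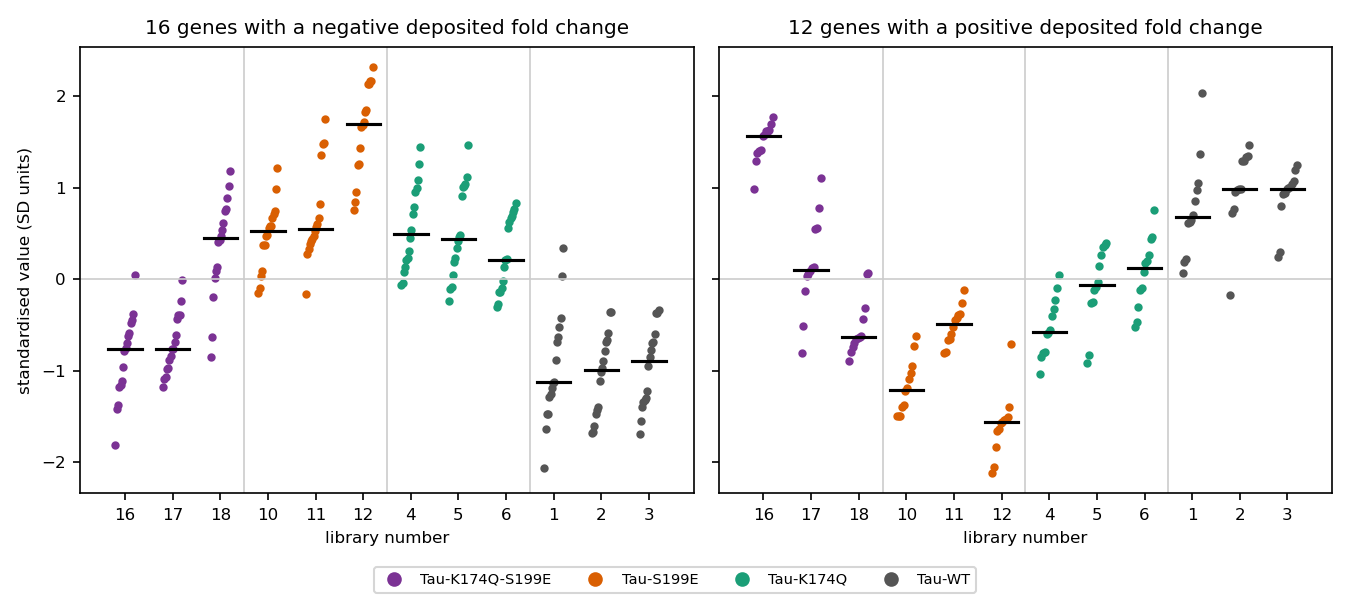
Standardised values (SD units, y axis) of the members in each of the 12 libraries (x axis; 1 point per gene, line at the median), split by whether the authors' deposited table gives a negative or a positive fold change. In the 16 genes of negative sign, library 18 has a median of 0.45 while libraries 16 and 17 have -0.77 and -0.76; library 12 of Tau-S199E has the highest median of that panel, 1.70, and the lowest of the other, -1.57.

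The Tau-S199E result leaned most on library 12, which lay furthest from 0 in the table (SD over genes 1.67). Without it, 14 of the 28 genes were called against Tau-WT, 9 higher and 5 lower, beside 49.7% of the table. The 14 included SLC27A3, SLC16A3, SLC52A2, SLC38A5 and SLC35E1, which were lower, and SLC35A2, SLC35B1, SLC35D2, SLC30A1, SLC39A14, ATP6V1E1, ATP2A2 and ATP2C1, which were higher. The other 13 kept their direction without passing, among them SLC2A1, SLC2A8, SLC2A11, SLC37A4, SLC50A1, SLC6A8 and ABCG2. When the median of each library was removed, the median difference over the table was 0.87 SD units, against 1.41 as deposited, and 24 of the 28 genes were called, 12 in each direction, beside 81.7% of the table. The median over the 28 genes was then 0.93. ABCG2 (adjusted p = 0.111) and SLC38A1 (adjusted p = 0.106) were among those lost.

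By the cellular component terms in the deposited table, 6 members are assigned to the Golgi membrane, and with Tau-S199E 5 of them rose and 1 fell. Of all 61 genes with that term 36 rose and 23 fell. The ER membrane term covers 4 members, 3 up and 1 down, beside 64 up and 34 down of 106 genes. Only 1 term was searched for each compartment, and SLC37A4, which fell, does not carry the ER membrane term. The plasma membrane term covers 14 members, 7 up and 7 down, beside 119 up and 114 down of 265 genes. SLC2A1 and SLC50A1 are counted under both the Golgi and the plasma membrane. The plasma membrane members were therefore evenly divided. The Golgi members that rose were ATP2C1, SLC2A1, SLC35A2, SLC35B2 and SLC35D2, and SLC50A1 fell.

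Of the 28 genes, 6 (21.4%) lie on the X chromosome, beside 54 of the 1676 genes (3.22%). The 6 include SLC38A5, SLC35A2, SLC6A8, ATP6AP1 and SLC10A3. ATP6AP1 (chromosome X, 154428632 to 154436516, plus strand) and SLC10A3 (chromosome X, 154487306 to 154490690, minus strand) lie 50.8 kb apart in GRCh38 and had opposite directions with Tau-S199E. SLC38A5 (chromosome X, 48458537 to 48470256, minus strand) and SLC35A2 lie 432.9 kb apart and also had opposite directions.

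The 3′ kit reads the end of transcripts, where genes can overlap. In the last 500 bases, 4 members overlap another annotated gene on the same strand (SLC2A11, SLC35B2, SLC35D2 and SLC35E1), so reads there may be split between them. Another 5 overlap a gene on the opposite strand, among them SLC37A4 and TRAPPC4, SLC16A3 and CSNK1D, ATP6V1F and KCP, and ATP2C1 and ASTE1. Whether counting used the strand is not given in the sources used here, and without it the 2 genes of a pair cannot be told apart. SLC35E1 and ATP6V1E1 also have a named pseudogene copy. None of these partners is in the table, and 18 members had no such overlap or copy.

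Related genes that the naming rule leaves out were looked up in lists. Their counts stand beside 48.3% of the table called higher and 41.8% lower with Tau-S199E against Tau-WT. Of 31 genes of metal ion handling 7 were listed, and with Tau-S199E 5 of them rose and 1 fell. Those that rose were SMDT1 of the mitochondrial calcium uniporter, 2.49 (SE 0.34, adjusted p = 0.00812), the ferritin light chain FTL, 2.30 (SE 0.48, adjusted p = 0.01), the copper chaperone COX17, 1.99 (SE 0.53, adjusted p = 0.0139), the metallothionein MT2A, 1.99 (SE 0.62, adjusted p = 0.0196), and the magnesium transporter NIPA2, 1.85 (SE 0.61, adjusted p = 0.0234). The copper chaperone ATOX1 fell, -1.74 (SE 0.55, adjusted p = 0.0213), and the metallothionein MT1E did not pass, 1.16 (SE 0.60, adjusted p = 0.0921). Among partner subunits and trafficking factors 1 of 42 is in the table, the flippase subunit TMEM30A, which rose, 2.09 (SE 0.56, adjusted p = 0.0136).

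Of 52 transporters with other names 6 are in the table, and 2 rose and 3 fell with Tau-S199E. Among those that rose was the peptide transporter subunit TAP2, 1.81 (SE 0.57, adjusted p = 0.0204). The lysosomal cystine exporter CTNS fell, -2.30 (SE 0.49, adjusted p = 0.01), as did MPDU1, -2.05 (SE 0.59, adjusted p = 0.0164), and the lysosomal protein MFSD12, -1.86 (SE 0.67, adjusted p = 0.031). MFSD1 did not pass, 1.65 (SE 0.70, adjusted p = 0.0521). Of 68 genes of channels and related proteins 6 are in the table, 3 up and 3 down. VDAC2, 2.01 (SE 0.60, adjusted p = 0.0177), AQP3, 2.13 (SE 0.54, adjusted p = 0.012), and CLNS1A, 2.14 (SE 0.49, adjusted p = 0.0104), rose, while the lysosomal channel TMEM175, -2.35 (SE 0.46, adjusted p = 0.00981), and the store-operated calcium entry genes STIM1, -2.17 (SE 0.51, adjusted p = 0.0104), and ORAI2, -2.07 (SE 0.59, adjusted p = 0.0158), fell. The calcium pumps ATP2A2 and ATP2C1 had the opposite direction to STIM1 and ORAI2 with Tau-S199E, and so had their deposited signs. Of 4 ABC proteins that do not transport, ABCF1, a translation factor, is in the table and fell, -2.01 (SE 0.59, adjusted p = 0.0171). Of the 23 genes called over these lists, the V-ATPase assembly factors and the regulators included, 11 were not called without library 12 (adjusted p = 0.05003 to 0.103): ABCF1, ATF4, ATOX1, CCDC115, MFSD12, MPDU1, MT2A, NIPA2, ORAI2, TAP2 and VDAC2. Over the table, 1509 of 1676 genes (90%) were called with all libraries and 833 (49.7%) without library 12. Leaving out any 1 of the other libraries lost between 0 and 5 of the 23. MT2A, NIPA2 and VDAC2 were not called with the libraries of Tau-S199E and Tau-WT alone (adjusted p = 0.0554 to 0.075), nor was NIPA2 with library medians removed (adjusted p = 0.0611). With moderated variances MFSD1 (adjusted p = 0.00404) and MT1E (adjusted p = 0.0399) passed.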

How the data were processed

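RNA of 12 libraries was measured. Per the submitters' processing notes, the build was GRCh38 and the tools included DESeq2, RSEM 1.2.31 and STAR 2.5.3a, with no role or order given. Library values are a standardised score, made by the authors gene by gene over the 12 deposited columns, as means of 0 and SDs of 1 show. The log2 fold change, the adjusted p-value and a cluster number from 1 to 4 are used as deposited by the authors, per the file headers; of the 28 members, 11, 1, 7 and 9 were in clusters 1 to 4. The transform before standardising is not given in the sources used here. Since standardised values allow no count model, each of 7 contrasts was fitted with limma 3.58.1 (R 4.3.3) over all 12 libraries, 8 residual degrees of freedom, with each gene's ordinary residual variance, two-sided, Benjamini-Hochberg adjustment over 1676 genes, threshold 0.05; the code was tested on simulated data. Alternatives were moderated variances, the libraries compared alone, library medians removed and each library left out. The simulated data held shifts of 2, 4 and 6 residual SD in some genes of Tau-K174Q. Against Tau-WT, ordinary variances recovered 0.5%, 81% and 100% of these, and moderated variances 0%, 0% and 95%. Since only some genes were shifted, these shares do not give the power in the deposited table. For 1 value, 3 libraries against 3 allow no exact permutation p under 0.1. All 12 values are given for the 5 most positive and 5 most negative deposited fold changes, the 5 largest rises and falls with Tau-S199E, and pump subunits; promoter windows were chosen after their values were seen. Gene positions are from GENCODE 29 (GRCh38), promoters from RefSeq (GRCh38.p14). A few genes, 2 members among them, are not reported by name here. The members and lists were chosen with earlier results of these data known.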

Additional observations from a re-analysis of the deposited data

Results flagged for a closer look

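The difference between the effect of K174Q in the presence of S199E and in its absence, (Tau-K174Q-S199E minus Tau-S199E) minus (Tau-K174Q minus Tau-WT), passed the test in 27 of the 28 genes, beside 97% of the table. The deposited sign equals that of this difference in 1676 of 1676 genes, so the listing itself may rest on it and neither the count nor the values are independent evidence. Negative values included -3.04 SD units for SLC30A1, -3.01 for SLC35A2 and -2.93 for ATP2C1. The highest were 3.02 for SLC2A11, 2.85 for SLC35E1 and 2.69 for ATP6V1F. SLC50A1 was the gene that did not pass.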

How the results depend on the processing

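Without 1 library in turn, the members called ranged from 14 to 26 for Tau-S199E against Tau-WT, 0 to 10 for Tau-K174Q against Tau-WT, 0 to 24 for Tau-K174Q-S199E against Tau-S199E and 0 to 3 for Tau-K174Q-S199E against Tau-K174Q. Over the table's 1676 genes these ranges were 833 to 1572, 0 to 675, 0 to 1315 and 0 to 142, in the same order. Moderated variances called 14 for Tau-K174Q against Tau-WT (59.9% of the table) and 21 for Tau-K174Q-S199E against Tau-S199E (68.8%). A fit on the libraries of Tau-K174Q and Tau-WT alone called 12 (48.9%). The cause was not tested. The fit on the compared libraries alone lowered Tau-S199E against Tau-WT to 23 members and 1207 genes, against 27 and 1509. At an unadjusted p under 0.05, leaving out 1 library gave 7 to 16 for Tau-K174Q against Tau-WT, 1 to 9 for Tau-K174Q-S199E against Tau-WT, 9 to 25 for Tau-K174Q-S199E against Tau-S199E (9 or 10 without library 12, 16 or 17), 1 to 9 for Tau-K174Q-S199E against Tau-K174Q (1 or 2 without library 1, 4, 5, 16 or 17, 9 without library 18) and 2 to 7 for Tau-K174Q against Tau-S199E (2 or 3 without library 4, 5, 6, 10 or 12). Over the table's 1676 genes these unadjusted ranges were 467 to 1029, 56 to 397, 411 to 1389, 50 to 677 and 116 to 371, in the same order. SLC37A4 in Tau-K174Q-S199E against Tau-WT (0.11) turned to -0.082 with library medians removed and ranged from -0.37 to 0.66 with 1 library left out. No paired analysis was possible because the columns carry no replicate number. Depth is unknown after standardisation.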
